A study of Mus musculus with 4 samples.

Results

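The cells described here are the *Tcf21* positive, *Lhx2* negative cells of mouse gastruloids at day 6 of culture. They were chosen by their own counts in the day 6 library: at least 2 *Tcf21* UMIs (unique molecular identifiers, each standing for 1 captured RNA molecule), no *Lhx2* UMI, *Myl7* under 30 per 10000 UMIs and under 3 *Epcam* UMIs. Of 6628 barcodes, 5850 were kept as cells, with at least 2000 UMIs and under 20% of UMIs from mitochondrial genes. Of these, 592 met the rule, which is 10.1% of the day 6 cells (exact Clopper-Pearson 95% interval 9.36 to 10.9%). They are called Tcf21+ Lhx2- cells below. All intervals cover counting error only.

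Gastruloids are aggregates of mouse embryonic stem cells that, after a pulse of a WNT pathway activator, lay down several embryonic tissues, including heart and head mesoderm. The Zx1 stem cell line, labelled wild type, was used, and from day 4 the medium held bFGF, VEGF and ascorbic acid, factors that favour cardiac and vascular cells. A single 10x Genomics 3′ library was made from pooled gastruloids at each of days 4, 5, 6 and 11. With 1 library a day there is no replicate, so values are given with no test, and differences between days and between libraries cannot be told apart.

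*Tcf21* encodes a basic helix-loop-helix transcription factor expressed in progenitors of branchiomeric head muscle, in the epicardium, and in the mesenchyme around lung, gut, kidney and spleen. In head muscle progenitors it acts together with *Msc*, *Tbx1* and *Lhx2*, a LIM homeobox factor of pharyngeal mesoderm. *Isl1*, another LIM homeobox gene, marks the second heart field, the mesoderm behind the early heart tube that supplies both heart and head muscle. *Ebf3* is a transcription factor of early muscle and other mesenchyme. *Myl7* encodes an atrial myosin light chain and *Epcam* an epithelial adhesion protein, so these limits act against heart muscle and epithelial cells.

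In the day 6 library, 1669 cells held a *Tcf21* UMI, 841 of them exactly 1. Of the 828 cells with 2 or more, 211 also held *Lhx2* (95 with 1 UMI and 116 with 2 or more) and 617 did not. The *Myl7* limit then removed 16 cells and the *Epcam* limit 9. Among the 592 cells kept, 285 held 2 *Tcf21* UMIs, 134 held 3, 77 held 4 and 96 held 5 or more, up to 15. *Myl7* was absent from 263 of them and its median was 0.228 per 10000 UMIs, while 7 cells stood at 20 or more and the highest at 27.4. Just outside that limit, at 30 to under 40 per 10000, were 2 cells. An *Epcam* UMI was present in 54 Tcf21+ Lhx2- cells, and 8 of those held 2. The 285 cells just inside the *Tcf21* limit had 64.4 CPM (counts per 1000000 UMIs) of *Tcf21*, and the 603 cells just outside it, with 1 UMI and the other limits met, had 34.5 CPM.

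For comparison they were set beside all 5258 other cells and beside the 528 cells with 2 or more *Lhx2* UMIs, which form part of those others. Depth was close in the 3 sets, with a median of 26609.5 UMIs in Tcf21+ Lhx2- cells, 25415 in the other cells and 26304 in the *Lhx2* cells. Median mitochondrial shares were 2.87, 2.84 and 2.68%. Ribosomal protein genes took 25.1, 25.7 and 24.5% of UMIs. Levels are CPM of the UMIs summed over a set, which came to 18977803 UMIs in the Tcf21+ Lhx2- cells, 161990885 in the other cells and 18438944 in the *Lhx2* cells. Among the 480 cells with the highest doublet scores, 8% of the library, were 64 Tcf21+ Lhx2- cells, 10.8% of them against 7.91% of the other cells. Barcodes of Tcf21+ Lhx2- cells recurred 0, 3 and 1 times in the libraries of days 4, 5 and 11.

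The markers given for these cells did not behave alike. *Tcf21* (mm10 chr10:22817281-22820174, minus strand) stood at 99.9 CPM against 10.0 in the other cells and 27.3 in the *Lhx2* cells, as the rule requires. The antisense genes *Gm10824* and *Tlx1os* overlap *Tcf21* and *Tlx1*, and the strand setting of the counting is not given in the sources used here. *Isl1* (chr13:116298281-116309689, minus strand) was at 61.2 CPM, against 33.4 in the other cells and 33.7 in the *Lhx2* cells, a ratio of 1.83 (95% interval 1.72 to 1.95) and 1.82 (1.65 to 2.01). It was detected in 63.5% of Tcf21+ Lhx2- cells, 41.1% of the other cells and 47.0% of the *Lhx2* cells. *Ebf3* (chr7:137193673-137314445, minus strand) was at 8.91 CPM against 8.99 and 9.92, with a ratio to the other cells of 0.99 (0.84 to 1.16). It was therefore not higher in these cells, and the cells are named here by their rule. *Lhx2* itself lies at chr2:38339281-38369733 on the plus strand.

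Detection depends on depth, so every cell was also thinned to 5000 UMIs, which kept all 592 Tcf21+ Lhx2- cells, 5143 other cells and all 528 *Lhx2* cells. *Isl1* was then detected in 26.2, 15.3 and 15.5% of the 3 sets. In the 454 cells of a cluster led by the endothelial genes *Cd93*, *Icam2* and *Cdh5*, taken as background for *Isl1* and whose unthinned depth had a median of 36725 UMIs, the share was 4.85%. *Ebf3* was detected in 5.57% of thinned Tcf21+ Lhx2- cells, 4.41% of the other cells, 4.17% of the *Lhx2* cells and 5.07% of the endothelial cells. Thinned *Tcf21* was found in 43.4% of the cells chosen for it and in 1.54% of the endothelial cells. Before thinning, that endothelial cluster had 455 cells, 13 of them Tcf21+ Lhx2- cells, which were not left out. Of its cells, 18.5% were among those with the highest doublet scores. Its shares are therefore not a background free of the chosen cells.

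Few genes were higher in Tcf21+ Lhx2- cells than in the rest of the gastruloid. Of 8157 genes at 10 CPM or more in either set, 12 (0.147%) were at least 2-fold higher and 163 (2.0%) at least 2-fold lower. The 12 were *Tcf21*, *Slc38a5*, *Nkx2-3*, *Foxf1*, *Tmem158*, *Col9a2*, *Rgs5*, *Tlx1*, *Rspo1*, *Ppp1r14a*, *Osr1* and *2610528A11Rik*. *Slc38a5*, *Nkx2-3*, *Foxf1*, *Col9a2* and *Rspo1* were under 10 CPM in the other cells and so entered the count only through the chosen cells. *Slc38a5*, *Nkx2-3*, *Col9a2*, *Rspo1* and *2610528A11Rik* are named after their values were seen.

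Besides *Tcf21*, 4 of the 12 encode transcription factors. *Nkx2-3* (chr19:43612325-43615892, plus strand), a homeobox gene needed for spleen and gut mesenchyme, was at 15.6 CPM against 5.88 in the other cells, a ratio of 2.65 (2.32 to 3.03), and at 2.17 in the *Lhx2* cells. *Foxf1* (chr8:121084386-121088144, plus strand), a forkhead gene of splanchnic mesoderm, was at 16.7 against 6.65 and 8.24 CPM, 2.50 times the other cells (2.20 to 2.84). Its locus overlaps the annotated gene *Gm20388*, which can take reads from it. *Tlx1* (chr19:45150680-45156943, plus strand), a homeobox gene required for the spleen, was at 34.9 against 15.7 and 21.0 CPM, a ratio of 2.23 (2.04 to 2.43) to the other cells. *Osr1* (chr12:9570116-9581500, plus strand), a zinc finger gene of lateral plate and intermediate mesoderm and of the posterior second heart field, was at 46.1 against 22.2 and 8.51 CPM, a ratio of 2.08 (1.93 to 2.24). All 4 were found in a minority of the cells: 19.3% held *Nkx2-3*, 21.5% *Foxf1*, 31.9% *Tlx1* and 32.1% *Osr1*. In the other cells the shares were 8.31, 11.3, 17.3 and 18.9%.

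The others are transport, signalling and matrix genes. *Slc38a5* (chrX:8271133-8280179, plus strand), an amino acid transporter, had a ratio of 4.32 (3.74 to 4.98), at 15.5 CPM against 3.60, and was found in 15.7% of Tcf21+ Lhx2- cells and 6.41% of the others. *Rgs5*, which dampens G protein signalling and is known from pericytes and second heart field, was at 147 CPM against 63.4, a ratio of 2.32 (2.23 to 2.42), and in 75.3% of cells against 42.5%. *Tmem158* was at 56.6 against 23.3 CPM, a ratio of 2.43 (2.27 to 2.60). *Ppp1r14a*, an inhibitor of myosin phosphatase, stood at 53.9 against 25.6 CPM, a ratio of 2.11 (1.96 to 2.26). *Rspo1*, a secreted enhancer of WNT signalling, was at 10.7 against 4.96 CPM, a ratio of 2.16 (1.84 to 2.52), and *Col9a2*, a collagen IX chain, had a ratio of 2.39. *2610528A11Rik* was at 145 against 72.1 CPM, a ratio of 2.01 (1.93 to 2.09). After thinning to 5000 UMIs, *Slc38a5* was found in 5.07% of Tcf21+ Lhx2- cells, 1.36% of the others and 0 of the 454 endothelial cells, which allows a share there of up to 0.661%. *Tmem158* and *Ppp1r14a*, by contrast, were also found in 14.98 and 16.3% of thinned endothelial cells, against 21.1 and 19.9% of Tcf21+ Lhx2- cells. *Nkx2-3* was found in 5.41% of thinned Tcf21+ Lhx2- cells, 2.41% of the others and 4.85% of endothelial cells.

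**Figure D1:**
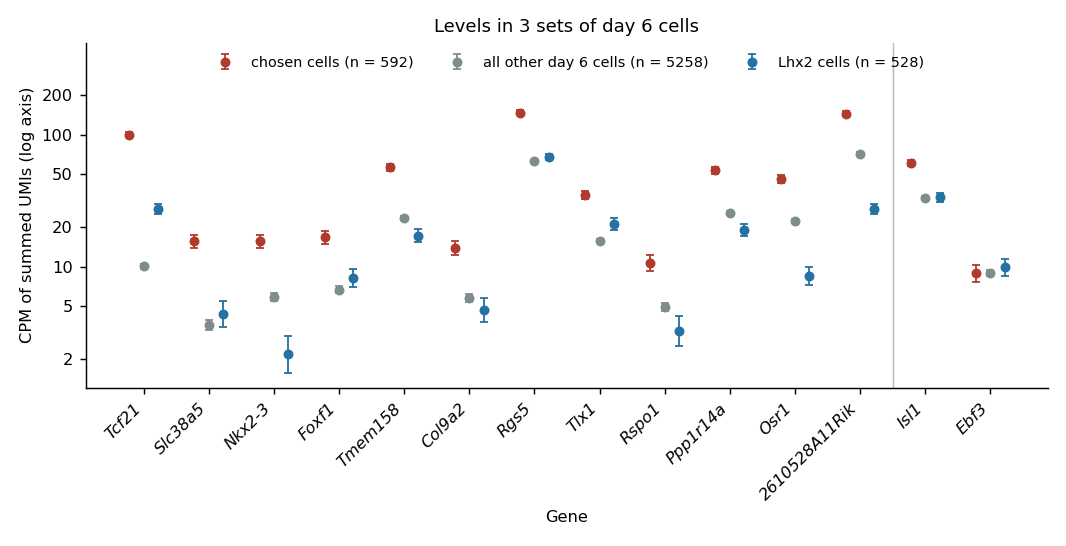
CPM of summed UMIs, on a log axis, of the 12 genes at least 2-fold higher in the chosen (Tcf21+ Lhx2-) cells than in all other day 6 cells, followed by *Isl1* and *Ebf3*, in 3 sets of cells. Points are the summed level and bars the exact Poisson 95% interval; *Ebf3* lies near 9 CPM in the chosen and the other cells, while *Osr1* is at 46.1 CPM in the chosen cells and 8.51 CPM in the *Lhx2* cells.

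Below the 2-fold line, the highest ratios among genes at 20 CPM or more were of several kinds. *Col3a1*, a fibrillar collagen, was 1.94 times the other cells, the mesenchymal cadherin *Cdh11* 1.80 and the integrin *Itga8* 1.84. The homeobox genes *Alx1* and *Pitx1*, of head and limb mesenchyme, had ratios of 1.85 (97.2 against 52.5 CPM) and 1.86. *Tac2*, a tachykinin precursor, and *Hsd11b2*, which inactivates glucocorticoids, were each at 1.91, and the neurotrophin receptor *Ntrk2* at 1.82. *Barx1*, a homeobox gene of stomach mesenchyme, was at 5.80 CPM against 1.90, a ratio of 3.06 (2.44 to 3.81), but did not reach the 10 CPM minimum.

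Among genes at 50 CPM or more in the other cells, the lowest ratios were mostly those of heart muscle genes, which the *Myl7* limit can lower by construction. *Myh7*, a cardiac myosin heavy chain, was at 3.53 CPM against 52.6, *Myl3* at 9.48 against 138, *Actc1* at 52.0 against 549 and *Tnnt2* at 64.8 against 383 CPM. Of the 16 cardiomyocyte genes at 10 CPM or more, 15 were at least 2-fold lower, with a median ratio of 0.13. The *Myl7* limit favours such low values, so nothing is read from them. With no *Myl7* limit, 608 cells were chosen and 132 genes were at least 2-fold lower, against 163 with it. Of 41 named genes past 2-fold, 4 were then under it. What part the limit has in these values was not tested.

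The levels of these genes were followed over cells with 0, 1, 2, 3 and 4 or more *Tcf21* UMIs, with the other limits of the rule held. *Slc38a5* stood at 2.82, 6.58, 12.8, 12.7 and 21.4 CPM in these 5 classes, and *Foxf1* at 5.5, 11.5, 16.0, 18.2 and 16.5 CPM. *Rgs5* went from 49.0 CPM with no *Tcf21* UMI to 134 with 1 and 140 with 2, and then lay between 140 and 160 CPM. *Isl1* likewise went from 25.2 to 52.4 and 61.8 CPM and no further. *Osr1* differed in kind, at 28.6, 30.7, 41.9 and 30.5 CPM up to 3 UMIs and 62.4 CPM with 4 or more. *Ebf3* was highest with 1 UMI, at 12.2 CPM, and lowest with 4 or more, at 7.0 CPM. Cells with 1 *Tcf21* UMI thus already stood above those with none for *Isl1*, *Rgs5*, *Foxf1* and *Slc38a5*. The class with none also held more RNA of other lineages. Endothelial *Cdh5* was at 67.1 CPM there against 11.5 with 1 UMI, and neural *Sox2* at 51.9 against 11.2. What part this has in the step from 0 to 1 UMI was not tested. The classes differ in depth too, with medians from 23997 to 31003 UMIs.

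The list genes of the cardiopharyngeal programme, the regulators shared by heart and head muscle progenitors, were by their median near their level elsewhere. Of 9 at 10 CPM or more, 0 were 2-fold higher and 0 lower, with a median ratio of 0.96; over all genes the median log2 ratio was 0.02. Of the 9, 4 had a ratio above 1 and 5 below. *Isl1*, described above, belongs to this list and had a ratio of 1.83, under 2-fold. *Six4* was at 11.8 CPM against 11.4 and *Foxc1* at 41.6 against 32.9. *Tbx1*, a T-box gene upstream of head muscle, had 28 UMIs in the 592 cells (1.48 CPM), and *Msc* had 0 UMIs. *Prdm1*, below the minimum at 7.27 CPM, had a ratio of 1.83 (1.51 to 2.21).

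The second heart field lists were mixed. In the anterior list, 1 of 10 genes was 2-fold higher (*Rgs5*) and 1 lower (*Fgf8*, 3.11 against 18.3 CPM), with a median of 1.16. The bHLH gene *Hand2* was at 184 against 130 CPM and the Iroquois genes *Irx3* and *Irx5* were at 55.9 against 38.6 and 37.3 against 27.2 CPM. In the posterior and foregut list, 2 of 11 were higher (*Osr1* and *Foxf1*) and 1 lower (*Wnt2*, 20.7 against 50.9 CPM), with a median of 1.01. *Tbx5*, a T-box gene of the posterior heart field and atria, was at 13.3 against 20.001 CPM. *Gata6*, a zinc finger factor of heart and gut, did not depart from the other cells, at 166 against 164 CPM. *Foxf1* reached the 10 CPM minimum only through the Tcf21+ Lhx2- cells.

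Other mesoderm lists held few genes past 2-fold. In the juxtacardiac list 0 of 10 were higher or lower, and in the list for cranial and paraxial head mesoderm 0 of 4, with a median of 1.62. The epicardial and mesothelial list had 4 genes, of which 2 were lower: *Sfrp5*, a WNT inhibitor, at 21.8 against 49.7 CPM and *Krt19* at 6.85 against 16.6. *Wt1*, the defining transcription factor of the epicardium, was at 32.8 against 22.2 CPM, a ratio of 1.48 (1.36 to 1.61), and *Tbx18* at 6.27 against 5.54. Of 4 somitic genes 3 were lower. In the mesenchyme and matrix list 1 of 15 passed 2-fold, the smooth muscle actin *Acta2* at 129 against 514 CPM, and the median was 1.17. *Prrx1*, a homeobox gene of mesenchyme, was at 69.2 against 40.4 CPM, and *Twist1* at 218 against 155.5.

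Of the other lineages, endothelium had 9 of 11 genes lower (median 0.25), endoderm and epithelium 7 of 9 (0.21) and neural ectoderm 3 of 4 (0.39). Their RNA was not absent. The vascular cadherin *Cdh5* was at 9.38 CPM against 42.7, and the summed endothelial list had a median of 78.2 CPM per Tcf21+ Lhx2- cell, a 95th percentile of 419 and a highest value of 3419 CPM. What part those cells have in the values was not tested, other than by leaving out 35 cells as described below.

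Pathway genes differed little. None of 9 FGF response genes, 4 hedgehog genes, 6 retinoic acid genes or 6 Notch genes was 2-fold higher or lower than in the other cells. The hedgehog receptor and target *Ptch1* was at 52.1 against 42.2 CPM, and *Spry1*, an FGF feedback inhibitor, at 28.3 against 21.7. Among 9 BMP genes *Id4* was lower, at 5.32 against 14.6 CPM, and among 8 WNT genes *Rspo3*, at 19.6 against 49.2. Of 17 cell cycle genes, 14 were above a ratio of 1 and 0 were at 2-fold. *Cenpf* was at 331 against 247 CPM and *Aurka* at 70.3 against 50.7.

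**Figure D2:**
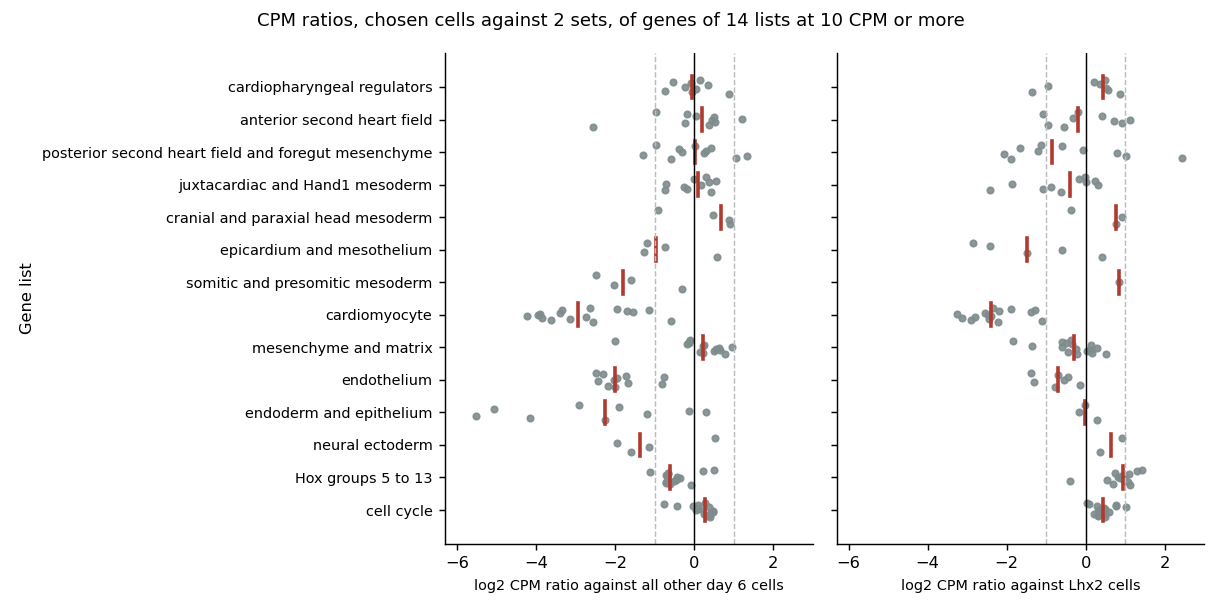
log2 CPM ratio of the chosen cells to all other day 6 cells (left) and to the *Lhx2* cells (right) for the genes of 14 lists at 10 CPM or more in either set. Each grey point is a gene and each red bar the median of a list; dashed lines mark 2-fold. Cardiomyocyte genes lie far left (median ratios 0.13 and 0.19), and genes of Hox groups 5 to 13 lie left of 0 against all other cells (0.65) and right of 0 against the *Lhx2* cells (1.92).

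Against the *Lhx2* cells, 47 of 8158 genes (0.576%) were at least 2-fold higher and 170 (2.08%) at least 2-fold lower. This comparison shares the Tcf21+ Lhx2- cells with the one above. *Osr1* had a ratio of 5.42 (4.56 to 6.46), *Arg1*, encoding arginase, 4.48 (48.4 against 10.8 CPM), *Tcf21* 3.66 and *Ndnf*, a secreted glycoprotein, 3.36. *Rdh10*, which makes the precursor of retinoic acid, was at 40.6 against 14.5 CPM, a ratio of 2.80. *Rprm*, a cell cycle inhibitor, was at 146 against 56.4 CPM. *Nkx2-3* had a ratio of 7.19 (5.16 to 10.3), from 2.17 CPM in the *Lhx2* cells. *Osr1* was found in 8.90% of the *Lhx2* cells and 32.1% of Tcf21+ Lhx2- cells.

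Hox genes set the 2 sets of cells apart. Of 14 genes of Hox groups 5 to 13, 5 were 2-fold higher in the Tcf21+ Lhx2- cells, 0 were lower and 13 had a ratio above 1, with a median of 1.92; over all genes the median log2 ratio was 0.01. *Hoxd9* was at 42.2 against 15.7 CPM, *Hoxc9* at 27.0 against 12.6, and *Hoxd8* at 20.7 against 8.46. *Hoxb5* was the exception, at 10.3 against 13.6 CPM. In Hox groups 1 to 4, 2 of 8 were higher, *Hoxd3* and *Hoxd4*, with a median of 1.63. Against all other day 6 cells the later Hox genes went the other way, with 0 of 15 higher, 1 lower (*Hoxc10*, 21.6 against 46.7 CPM) and a median of 0.65. As a whole, Tcf21+ Lhx2- cells therefore lay between the *Lhx2* cells and the rest of the gastruloid for these genes. Summed over the list they held 355 CPM, the *Lhx2* cells 185 and the other cells 493. This is an average over unlike cells. Of the groups of Tcf21+ Lhx2- cells described below, groups 1 and 2 held 575 and 408 CPM. Groups 3, 4 and 5 held 39.9, 106 and 54.0 CPM.

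Among the genes lower than in the *Lhx2* cells were several of the heart field and venous pole. *Shox2*, a homeobox gene of the sinus venosus, was at 8.33 against 60.3 CPM. *Sfrp5* was at 21.8 against 157, *Mab21l2* at 23.2 against 124, *Wnt2* at 20.7 against 86.8 and *Tbx5* at 13.3 against 49.1 CPM. The cardiac GATA factors were lower too, *Gata4* at 26.6 against 83.8 and *Gata6* at 166 against 362 CPM. *Tbx18*, of sinus horn and epicardium, was at 6.27 against 17.6. In the posterior and foregut list 2 of 10 were higher (*Osr1* and *Foxf1*) and 5 lower, in the juxtacardiac list 3 of 10 were lower, and in the epicardial list 3 of 5. *Hba-x* was at a ratio of 0.01, but 1 of the *Lhx2* cells held 877 of their 1404 UMIs. *Spry1* (2.03) and *Etv4* (2.15), both FGF targets, were 2-fold higher than in the *Lhx2* cells, and all 17 cell cycle genes had a ratio above 1.

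The *Lhx2* cells carry no *Myl7* or *Epcam* limit, and with both limits set 480 of them remained. Against those, 54 of 8115 genes (0.665%) were 2-fold higher and 121 (1.49%) lower. *Osr1* was still 5.22 times and *Hoxd9* 2.69 times their level, and *Gata4* 0.314, *Tbx5* 0.282 and *Sfrp5* 0.135. *Foxf1* came to 1.90 and *Hoxd3* to 1.98, below 2-fold, so that 1 gene of the posterior and foregut list, *Osr1*, was 2-fold higher. Of 54 named genes past 2-fold against all *Lhx2* cells, 13 were under it here. *Myl3* turned from 0.11 to 1.31.

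Tcf21+ Lhx2- cells did not form a cluster of their own. Leiden clustering of all day 6 cells, made without the rule genes, gave 19 clusters, of which 14 held some of them. In the 7 clusters that each held at least 5% of them were 518 cells (87.5%). They made up 22.4% of cluster 12 (56 of 250 cells, led by *Rgs4*, *Rgs5*, *Armh4* and *Tlx1*), 22.2% of cluster 10 (70 of 315, led by *Nusap1*, *Sgo2a* and *Armh4*), 16.6% of cluster 2 (119 of 715, led by *Rarres2*, *Alx1* and *Rprm*) and 16.1% of cluster 1 (142 of 880, led by *Psat1*, *Phgdh* and *Pclaf*). In cluster 5, led by *Shox2*, *Sfrp5* and *Alcam*, they were 27 of 452 cells (5.97%), where *Lhx2* cells were 145 (32.1%). They were 3.76% of cluster 9, led by *Osr1*, *Meox1* and *Arg1*, and 0.252% of cluster 7, led by the muscle genes *Myl2*, *Myl3* and *Myl1*. At resolutions of 0.5 and 1.5, 12 of 15 and 17 of 23 clusters held some, and their highest share of a cluster was 17.9 and 23.9%.

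**Figure D3:**
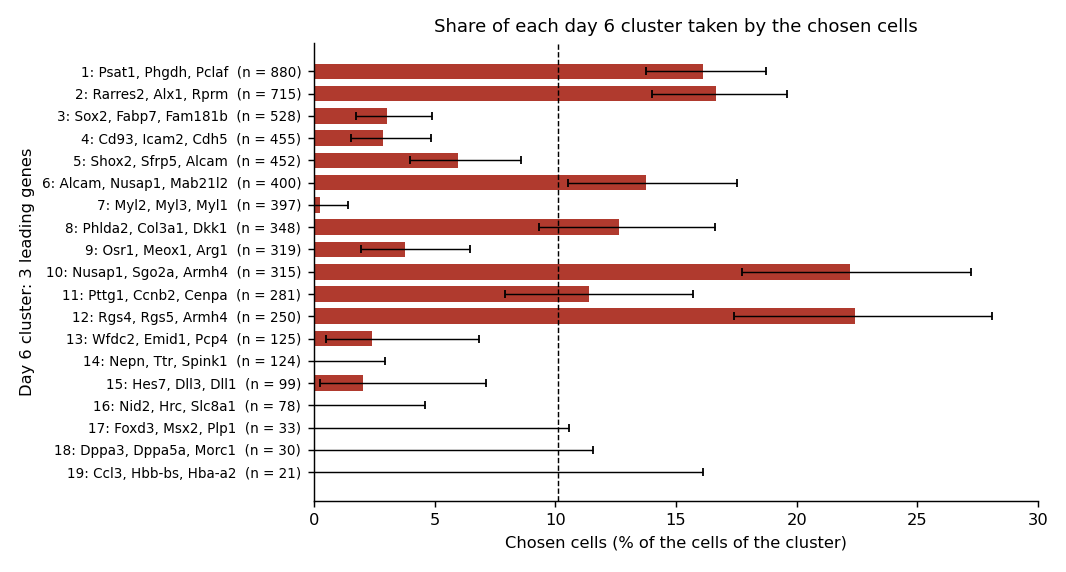
Share of each of the 19 day 6 clusters (n cells each) taken by the chosen cells, with exact Clopper-Pearson 95% intervals as bars. The dashed line is the share over all day 6 cells, 10.1%; clusters 10 and 12 reach 22.2 and 22.4% and clusters 14 and 16 to 19 hold none.

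Clusters led by genes of other lineages (3 by neural, 4 by endothelial, 7 by muscle, 13 by *Wfdc2* and 15 by presomitic genes) held 35 of the cells, 5.91%. Without them 16 genes were 2-fold higher than in the other cells, and all 12 genes above were among the 16. The other cells kept their own members of these clusters. Such a 1-sided removal could hardly end a call, so nothing is read from the 12 being kept. With the top 8% of doublet scores left out, 17 were higher, again with all 12. Other limits ended calls: 9 of the 12 were kept with a *Tcf21* minimum of 1 UMI, 8 with *Lhx2* under 2 UMIs, 9 with no *Epcam* UMI and 8 as a mean over cells. The calls lost in 1 or more of these 4 were those of *Osr1*, *Rspo1*, *Ppp1r14a* and *2610528A11Rik*.

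In the 6 clusters with at least 40 Tcf21+ Lhx2- cells (1, 2, 6, 8, 10 and 12), these cells were set against the others of the same cluster. *Foxf1*, *Rgs5* and *Osr1* had a ratio above 1 in 6 of 6 clusters, with the interval above 1 in 4, 5 and 4. *Slc38a5*, *Nkx2-3*, *Tmem158*, *Tlx1* and *Isl1* were above 1 in 5 of 6, *Rspo1* in 4, *2610528A11Rik* in 3 and *Ebf3* in 2. For *2610528A11Rik* the interval lay below 1 in 2 clusters. Single clusters went past the ratios over all cells, but on few UMIs. In cluster 10, *Slc38a5* had its highest ratio, 8.97 (3.82 to 23.4), from 21 UMIs against 8. *Nkx2-3* had its highest there too, 4.66 (2.00 to 11.2), from 15 UMIs against 11. In cluster 12 each gene had 0 UMIs in the Tcf21+ Lhx2- cells and 3 in the others. When the other cells were weighted to the clusters' shares of the Tcf21+ Lhx2- cells, 3 of 7994 genes remained 2-fold higher: *Tcf21* (7.25), *Slc38a5* (3.39) and *Nkx2-3* (2.32). *Foxf1* then stood at 1.93, *Tmem158* at 1.84, *Osr1* at 1.61, *Rgs5* at 1.41, *Isl1* at 1.39, *Tlx1* at 1.35 and *Ebf3* at 0.738. The weighting was chosen after the values were seen.

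Clustered on their own, the 592 cells fell into 6 groups, which are described by their leading genes. The groups were built from these same genes, so their differences are a description. Group 1 (197 cells) was led by *Hoxa9*, *Hoxc10* and *Hoxc9*, group 2 (122) by *Krt18*, *Arg1* and *Rprm*, and group 3 (104) by *Phox2a*, *Rgs4* and *Col9a2*. Group 4 (62) was led by *Shox2*, *Pnmt* and *Vsnl1*, group 5 (58) by the mitotic genes *Aspm*, *Depdc1a* and *Nusap1*, and group 6 (49) by the endothelial genes *Tie1*, *Ctla2b* and *Icam2*. Median depth ran from 17454 UMIs in group 3 to 38725 in group 1. Cells with top doublet scores were 16.2% of group 1, 22.6% of group 4 and 22.4% of group 6, against 4.10% of group 2, 0.962% of group 3 and 1.72% of group 5. *Tcf21* was at 77.1, 119, 166, 109, 96.1 and 99.4 CPM in groups 1 to 6.

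The genes that were higher in the Tcf21+ Lhx2- cells as a whole were not at their highest in the same groups. *Osr1* was at 64.9 and 72.9 CPM in groups 1 and 2, and at 7.67, 15.04, 12.4 and 16.0 in groups 3 to 6. *Nkx2-3* was at 23.7 and 21.1 CPM in groups 1 and 2 and at 11.1 or less in the rest. *Slc38a5*, at 22.7 and 24.96 CPM in groups 1 and 2, was at 7.41 or less elsewhere. *Foxf1* was likewise highest in groups 1 and 2, at 21.4 and 20.1 CPM, and *2610528A11Rik* was at 196 and 291 CPM there and at 45.7 or less elsewhere. *Ppp1r14a* was at 66.2 and 78.4 CPM in groups 1 and 2 and at 38.3 or less elsewhere. *Rspo1* was at 12.9 and 25.3 CPM there and at 3.76 or less elsewhere. *Hoxc9* was at 48.9 and 25.3 CPM in groups 1 and 2 and at 3.70 or less in the others.

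Groups 3 and 5 had the highest levels of *Tlx1*, *Rgs5*, *Phox2a* and *Col9a2*. *Tlx1* was at 102 and 74.0 CPM there, against 21.4 and 19.4 in groups 1 and 2. *Rgs5* was at 467 and 225 CPM against 65.9 and 123. *Phox2a*, a homeobox gene of autonomic neurons and cranial motor nuclei, was at 73.1 and 24.3 CPM. *Col9a2* was at 52.7 and 26.5 CPM, and at 5.7 and 5.5 in groups 1 and 2. *Isl1* did not separate them, at 51.1 and 79.4 CPM in groups 1 and 2 and 96.6 and 81.6 in groups 3 and 5. *Ebf3* was at 21.98 and 15.1 CPM in groups 3 and 5 and at 8.75 or less in every other group. By cell, *Osr1* was found in 56.9 and 47.5% of groups 1 and 2 and in 4.8 and 5.2% of groups 3 and 5, and *Tlx1* in 23.9 and 19.7% against 61.5 and 46.6%.

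Groups 4, 6 and 1 also carried *Shox2*, *Cdh5* and *Sox2*, in that order, genes that each lead a cluster of all day 6 cells. *Shox2* was at 69.3 CPM in group 4 and at 3.24 or less elsewhere, *Tbx18* at 40.3 and the atrial light chain *Myl4* at 437 CPM. These 3 genes were detected in 43.5, 33.9 and 71.0% of the 62 cells of group 4. Of 18 cardiomyocyte list genes, 11 were at 10 CPM or more there and at least 2-fold higher than in the other Tcf21+ Lhx2- cells. Summed, that list held 2018 CPM in group 4 against 455 in those others. *Cdh5* was at 104 CPM in group 6 and at 1.08 or less in the others, but was detected in 28.6% of the 49 cells, as was *Tie1*, and *Cldn5* in 24.5%, so a minority of the group held these genes. *Sox2*, of neural cells, was at 25.3 CPM in group 1, in 13.2% of its cells, and at 2.69 or less in the other groups. At resolution 1, 84 cells with a median of 47865 UMIs, of which 27.4% had top doublet scores, held 826 CPM of the summed genes of Hox groups 5 to 13, against 209 in the other Tcf21+ Lhx2- cells. Groups 4, 6 and 1 had the highest shares of top doublet scores, and the part of doublets in their values, the Hox and *Osr1* levels of group 1 included, was not tested.

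**Figure D4:**
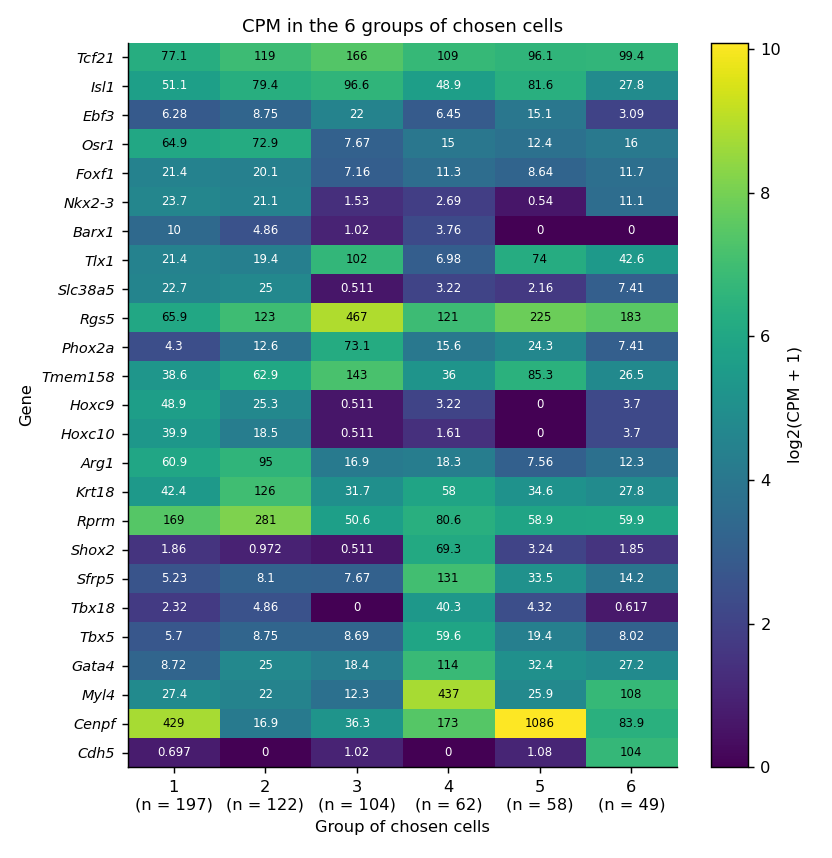
CPM of 25 genes (rows) in the 6 groups of chosen cells (columns, n cells below), printed in each cell and coloured by log2(CPM + 1). *Osr1*, *Nkx2-3*, *Slc38a5* and *Hoxc9* are highest in groups 1 and 2, *Tlx1*, *Rgs5* and *Phox2a* in groups 3 and 5, *Shox2* in group 4 and *Cdh5* in group 6.

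The 592 cells were also split by their markers. The 376 cells with an *Isl1* UMI (63.5%) were set against the 216 without. Of 8067 genes at 10 CPM or more in either part, 18 were at least 2-fold higher with *Isl1* and 26 lower. *Isl1* itself is among the 18, as the split requires. *Ptch1* was 2.15 times and *Krt18* 2.12 times as high with *Isl1*. Mitotic genes were higher with it too, *Gas2l3* at 2.11, *Nusap1* at 1.83, *Prc1* at 1.82 and *Cenpf* at 1.70. The endothelial and endodermal factor *Hhex*, at 2.98 against 22.5 CPM, and *Ctla2a*, at 8.85 against 35.4, were lower. *Osr1* was at 50.6 CPM with *Isl1* and 36.9 without. In the 122 cells with an *Ebf3* UMI (20.6%), 19 of 8172 genes were higher and 10 lower than in the 470 without. *Ebf3* itself is among the 19, again by the split. The others were led by the cardiac light chain *Myl3* (5.63, at 26.1 against 4.63 CPM) and cardiac actin *Actc1* (2.51). *Rgs4* (2.50), *Phox2a* (2.22), the sarcomere gene *Ttn* (2.15) and *Tlx1* (2.11) followed. Cells with either UMI were the deeper ones, with medians of 27925.5 against 25227 UMIs for *Isl1* and 29551.5 against 26014 for *Ebf3*.

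The same rule was then applied to the other 3 libraries, which had no part in choosing the day 6 cells. It found 31 of 7202 cells at day 4 (0.430%, 0.293 to 0.610%), 17 of 7408 at day 5 (0.229%, 0.134 to 0.367%) and 901 of 8730 at day 11 (10.3%, 9.69 to 11.0%). *Tcf21* over all cells was at 1.33, 0.902, 19.4 and 28.5 CPM on days 4, 5, 6 and 11. Day 11 was shallower, with a median of 12082 UMIs per cell against 25335, 28400.5 and 25581 on days 4, 5 and 6, so a minimum of 2 UMIs asks for a higher *Tcf21* level there. With too few cells on days 4 and 5, levels were compared at day 11 only.

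At day 11, 234 of 8781 genes (2.66%) were at least 2-fold higher in Tcf21+ Lhx2- cells than in the other cells of that library, and 532 (6.06%) lower. Of the 12 day 6 genes, 11 were at 10 CPM or more, and 9 of these were 2-fold higher, or 8 of 10 without *Tcf21*, which the rule fixes on both days at a high level (23.3 at day 11). In the other cells of that library *Tcf21*, *Slc38a5*, *Tlx1*, *Nkx2-3* and *Foxf1* were under 10 CPM. These genes entered the day 11 count only through the Tcf21+ Lhx2- cells, so their ratios there had to be above 1. *Slc38a5* had a ratio of 7.06 (6.06 to 8.23), *Tlx1* of 5.08 (4.60 to 5.62) and *Nkx2-3* of 3.34 (2.91 to 3.82). *Rgs5* was at 2.77, *Ppp1r14a* at 2.54, *Foxf1* at 2.47, *Osr1* at 2.35 and *Tmem158* at 2.07. *2610528A11Rik* was at 1.17 and *Rspo1* at 0.843. *Isl1* had a ratio of 1.08 at day 11 and *Ebf3* of 0.72. *Wt1* was at 2.65 at day 11 against 1.48 at day 6. Without *Tcf21*, 105 of the 234 genes were also at 10 CPM or more at day 6, and 93 of those (88.6%) had a ratio above 1 there, against 55.4% of all genes at that level on both days. Any of the 105 under 10 CPM in the other day 6 cells entered only through the Tcf21+ Lhx2- cells. Its ratio then had to be above 1, and how many such genes there are was not counted. The same *Myl7* and *Epcam* limits also act on both days, so nothing is read from these shares.

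**Figure D5:**
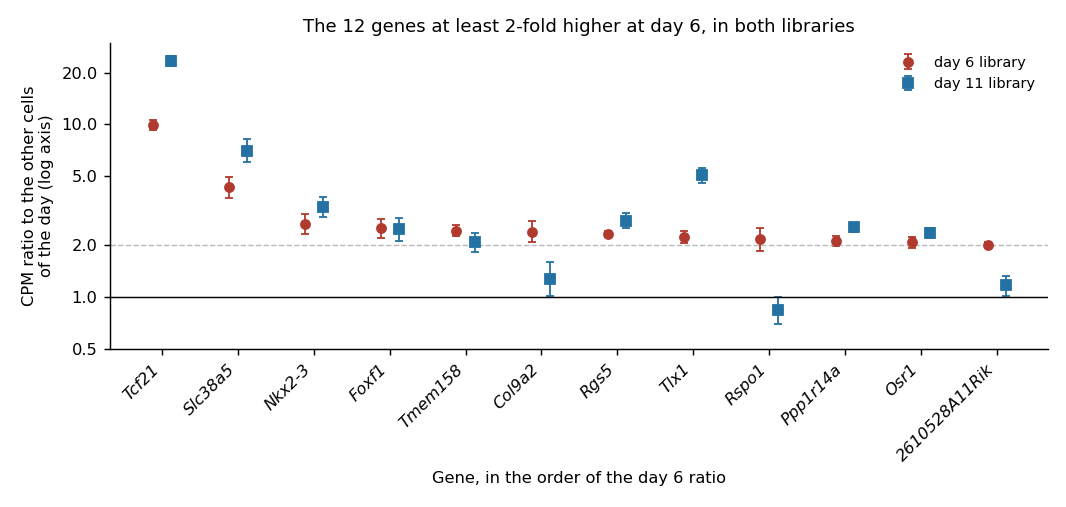
CPM ratio, on a log axis, of cells chosen by the same rule to the other cells of their own library, at day 6 (circles) and day 11 (squares), for the 12 genes at least 2-fold higher at day 6. Bars are exact 95% counting intervals and the dashed line marks 2-fold; *Slc38a5* and *Tlx1* have ratios of 7.06 and 5.08 at day 11, and *Rspo1* falls below 1.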

How the data were processed

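The authors deposited, for each of 4 libraries, filtered matrices of UMI counts per gene and cell barcode, made with Cell Ranger on mm10. Matrix headers give version 6.0.1 at day 11 and version 3.1.0 in the earlier libraries. The counts were used as deposited. Members and gene lists were chosen with earlier results of these data known. UMIs were summed over each set of cells and scaled to CPM; a gene entered a count at 10 CPM in either set and was called at a 2-fold ratio. CPM intervals are exact Poisson and ratio intervals exact conditional binomial, at 95%. Named genes were the rule genes and markers, the 15 highest and 10 lowest ratios to the other cells (at least 20 and 50 CPM), the 12 highest and lowest against the *Lhx2* cells, 2 genes by level and 2 by ratio per list, and 3 leading genes per cluster. Clusters came from 2000 variable genes without the rule genes, 30 components, 20 neighbours and Leiden resolution 1 (scanpy 1.11.5, leidenalg 0.10.2); the groups within used 1000 genes, 20 components, 15 neighbours and resolution 0.5. Scrublet's automatic threshold called 0 doublets at day 6, so all cells were kept and the top 8% of scores were left out as an alternative. Day totals were 227398362, 236714826, 182150138 and 149169498 UMIs. Gene positions are from GENCODE on mm10. The code was tested on simulated counts.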

Additional observations from a re-analysis of the deposited data

How the results depend on the processing

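With 1 library a day the values measure these libraries, not the days. No paired analysis was possible because no group has replicates and no result comes from a test. The share of day 6 cells chosen was 20.4% (1195 cells) with a *Tcf21* minimum of 1 UMI, 5.25% with 3 UMIs, 6.97% with 0.8 per 10000 UMIs, 11.7% with *Lhx2* under 2 UMIs and 9.20% with no *Epcam* UMI. With minimums of 1 and 3 UMIs it was 3.01 and 0.0555% at day 4, 1.97 and 0.0135% at day 5, and 19.1 and 5.67% at day 11. The 12 genes 2-fold higher than in the other cells became 28 with the limit per 10000 UMIs (9 of the 12 among them), 23 and 5 with minimums of 5 and 50 CPM and 4 with a pseudocount of 5 CPM. The 163 lower became 282, 22 and 108 under the last 3. Against the *Lhx2* cells, the 47 higher became 93 without top doublet scores, 77 and 12 at 5 and 50 CPM, 19 with the pseudocount and 80 as a mean over cells, and the 170 lower became 52 at 50 CPM and 107 with the pseudocount. Chosen after seeing the data, a 1.5-fold threshold gave 70, 286, 159 and 350 genes in these 4 counts, and weighting by cluster gave 3 and 9 against the other cells. The ratio turned to 0.650 for *Tdo2* against the other cells and to 0.221 for *Cdx4* against the *Lhx2* cells with the limit per 10000 UMIs; against the *Lhx2* cells *Epcam* turned to 2.56 without top doublet scores and to 1.84 under the same limits, and *Myl3* to 1.31. *Epcam* is itself a gene of the rule. The cause of these turns was not tested.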

Other observations

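The day 11 cells of the same rule had other genes at high ratios, named here after their values were seen. *Kazald1*, a secreted IGFBP-related protein, was at 42.9 against 7.72 CPM, a ratio of 5.55 (5.01 to 6.15), and its day 6 ratio was 2.41. *Pi15* was at 20.5 against 4.12 CPM, with ratios of 4.97 at day 11 and 4.27 at day 6. The integrin *Itga8* had ratios of 4.08 and 1.84, *Tac2* of 3.57 and 1.91, and the matrix proteoglycan *Lum* of 3.29 and 1.95. The difference between the days was not tested.

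Lists not described above held few genes past 2-fold at day 6. Against the other cells, 1 of 17 adhesion and guidance genes was lower, the semaphorin receptor *Nrp2* at 14.96 against 30.3 CPM, and the median ratio was 1.03. Of 8 stress and dissociation genes, 0 were higher or lower, with a median of 0.896, and the immediate early gene *Jun* was at 50.8 against 72.6 CPM. The 2 neural crest genes at 10 CPM or more, *Sox9* and *Ets1*, were at 47.8 against 36.4 and 40.5 against 44.6 CPM. Of the skeletal myogenic list, *Des* alone reached 10 CPM, at 115 against 99.0, and of 2 tailbud genes 1 was lower. The pluripotency gene *Dppa5a* was at 0.632 against 42.3 CPM and the embryonic globin gene *Hba-x* at 0.790 against 25.9.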
